A study of Mus musculus with 24 samples.

Results

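Matricellular proteins are secreted into the extracellular matrix but act on cells rather than as its load-bearing scaffold. They bind collagens, growth factors and integrins, and most are scarce in resting adult tissue and made in quantity during development, wound repair and tumor growth. The genes described here encode fibronectin (Fn1), SPARC (Sparc), periostin (Postn), tenascin-C (Tnc), thrombospondin-1 and -2 (Thbs1, Thbs2), fibulin-1 and -5 (Fbln1, Fbln5), EMILIN-1 (Emilin1) and matrilin-2 (Matn2). Some of these are structural as well, such as fibronectin, which forms fibrils, and fibulin-5 and EMILIN-1, which belong to elastic fibers. Members were found in the tables by gene symbol, from a list drawn up with earlier results of these data known, and all 10 were listed among the 34519 genes shared by the count tables of cultured cells and tumors.

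RNA-seq compared the mouse mammary tumor lines D2.1 and D2A1, both derived from D2 hyperplastic alveolar nodules of BALB/c mice. D2.1 is the dormancy-prone line of the pair and D2A1 the rapidly growing one. Each was sequenced as cultured cells (3 libraries a line) and as tumors grown in female hosts after injection into a mammary fat pad, with 4 tumors a line in BALB/c mice and 5 in SCID-beige mice, which gave 24 libraries in 6 groups. BALB/c mice have a full immune system, while SCID-beige mice lack T and B cells and have defective NK cells but keep macrophages, fibroblasts and vessels. Tumors were taken at about 500 mm3, so that groups were matched for size and not for time in the mouse. The hosts were young adults. The labels name no transgene or drug treatment, and each line is a single cell line, so that differences between lines are differences between these 2 lines. A tumor library mixed tumor cells with host cells, and more or fewer cells of a type cannot be told apart from more or less RNA per cell. Nothing in the labels says that the 3 libraries of a cultured line came from separate cultures, so that their spread may be technical.

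Between 16837260 and 24818234 reads per culture library and between 13566949 and 18355153 per tumor library were counted on genes. A level below is in CPM, counts scaled to library size, after TMM normalization over all 24 libraries, and a floor of 3 counts in a library equals 0.145 to 0.204 CPM on this scale, which covers counting error only. Several libraries stood apart in markers of other tissue. D2.1 BALB/c tumor 1 held 384 CPM of milk-protein transcripts, against at most 0.748 CPM in the other 3 tumors of its group. It was also the highest of its group in skeletal muscle markers (340.5 CPM, against 33.3 to 119 CPM) and adipocyte markers (514 CPM, against 22.6 to 184 CPM), and D2.1 BALB/c tumor 4 held 151 CPM of skin markers. D2.1 SCID-beige tumor 3 had the lowest sums of its group for fibroblast (6805 CPM), pericyte (65.0 CPM) and adipocyte (1.91 CPM) markers. Skeletal muscle markers summed to 262 and 212.2 CPM in D2.1 SCID-beige tumors 4 and 5 and to 0.828 to 17.2 CPM in the other 3. The tests below are edgeR's quasi-likelihood test with Benjamini-Hochberg adjustment over all genes tested, and a gene is said to be higher or lower where its adjusted p was under 0.05.

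In outline, 6 genes, Sparc, Postn, Tnc, Fbln5, Emilin1 and Matn2, were higher in D2.1 than in D2A1 in culture and in tumors of either host. Fn1 was higher in D2.1 in culture only by the test, Thbs1 was lower in D2.1 tumors but not in culture, and Fbln1 was lower in D2.1 in all 3 settings. Thbs2 was at the floor in cultured cells of both lines and present in every tumor. The host made no difference that passed the test for any of the 10 genes.

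**Figure D1:**
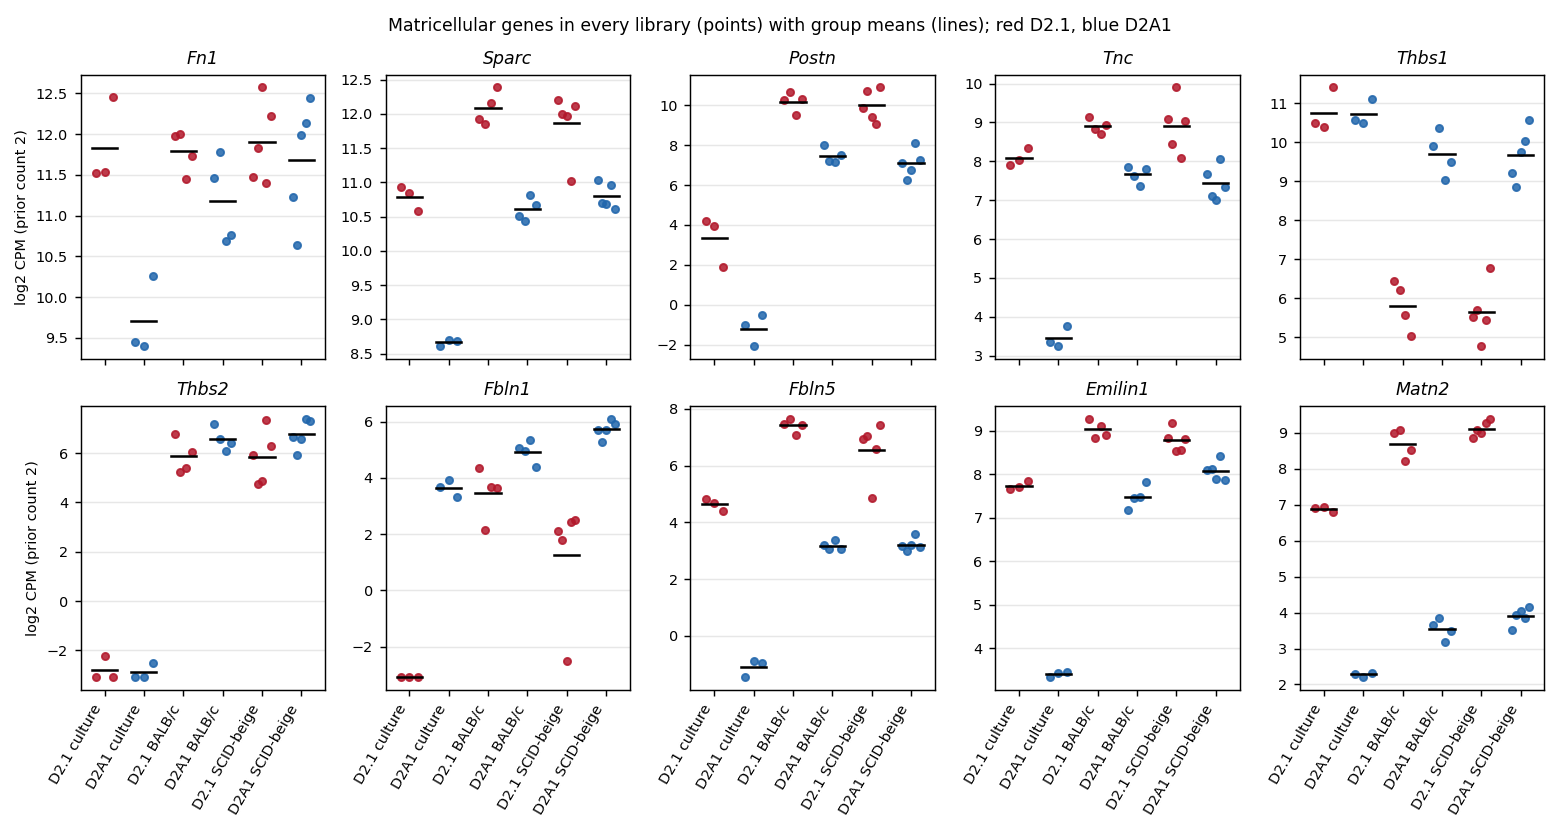
Level of each gene in each of the 24 libraries, on a log2 CPM scale with a prior count of 2. Points are libraries, lines are group means, red is D2.1 and blue is D2A1. The red points of Matn2 and Fbln5 lie above the blue points in each setting, the red tumor points of Thbs1 lie below all other groups, and both culture groups of Thbs2 lie at the bottom of its scale.

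The starts of 4 of these genes are shown. Postn, Tnc and Thbs2 are the genes with a motif match, and Fbln1 is shown beside them as the called gene that was lower in D2.1 in every setting. Of the 10 genes, 7 had an entry in the RefSeq promoter table of GRCm38.p6, and Fn1, Thbs1 and Matn2 did not. Each sequence below is the 250 bases before the listed start nearest to the annotated gene start, 5′ to 3′ on the strand of the gene, at chr3:54360857-54361106 for Postn (plus strand), chr4:64047016-64047265 for Tnc (minus strand), chr17:14694263-14694512 for Thbs2 (minus strand) and chr15:85205699-85205948 for Fbln1 (plus strand). Capitals mark a match to a TATA box (TATAAA, either strand).
Postn: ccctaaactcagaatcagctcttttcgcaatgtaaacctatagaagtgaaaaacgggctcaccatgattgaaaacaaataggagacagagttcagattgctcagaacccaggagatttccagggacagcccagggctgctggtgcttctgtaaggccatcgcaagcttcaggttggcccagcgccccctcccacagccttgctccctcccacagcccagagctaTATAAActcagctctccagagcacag
Tnc: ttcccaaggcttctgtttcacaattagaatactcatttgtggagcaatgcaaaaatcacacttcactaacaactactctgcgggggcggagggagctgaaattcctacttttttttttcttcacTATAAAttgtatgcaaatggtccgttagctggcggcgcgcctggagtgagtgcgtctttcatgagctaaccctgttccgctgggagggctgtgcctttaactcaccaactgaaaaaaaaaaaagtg
Thbs2: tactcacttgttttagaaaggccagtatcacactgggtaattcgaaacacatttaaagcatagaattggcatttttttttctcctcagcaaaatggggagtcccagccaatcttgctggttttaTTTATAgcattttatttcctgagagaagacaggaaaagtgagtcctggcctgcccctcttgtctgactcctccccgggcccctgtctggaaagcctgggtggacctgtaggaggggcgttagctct
Fbln1: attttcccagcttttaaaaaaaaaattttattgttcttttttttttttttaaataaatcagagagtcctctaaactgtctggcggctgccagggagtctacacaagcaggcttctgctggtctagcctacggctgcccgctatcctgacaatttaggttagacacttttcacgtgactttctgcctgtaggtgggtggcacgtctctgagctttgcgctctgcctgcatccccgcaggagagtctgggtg
Postn, whose level was far higher in tumors than in culture, has the match 26 bases before its start, where a TATA box usually lies. In Tnc and Thbs2 the match begins 126 bases before the listed start, in Thbs2 on the opposite strand. Of all 32851 promoters in the table, 12.4% hold this motif within the same length. The 7 promoters held no match on either strand to an AP-1 site (TGANTCA, in 6.75% of all promoters), a TEAD site (GGAATG, 12.6%) or the E-box CAGGTG (17.2%), and those of Sparc, Fbln1, Fbln5 and Emilin1 held none of the 4 motifs. A match is a description of the letters and not of a factor's binding.

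Fibronectin and SPARC were the most abundant of these transcripts per length. In FPKM, which divides by gene length and library total, Sparc ranked first among the 10 genes in 5 of the 6 groups, by median FPKM, with 3361 in D2.1 BALB/c tumors, 3150 in D2.1 SCID-beige tumors, 1297 and 1384 in D2A1 tumors of BALB/c and SCID-beige mice, and 666 in cultured D2.1 cells. Fn1 followed in second place in those groups, with a median FPKM of 886 in D2.1 BALB/c tumors and 1078 in D2A1 SCID-beige tumors. In cultured D2A1 cells Thbs1 came first, at a median FPKM of 249, ahead of Sparc at 172 and Fn1 at 80.8. The gene lengths behind the FPKM values differed between the culture and tumor tables (8315 bases for Fn1 in the former and 4085 in the latter), so that FPKM was compared within a table only and all other comparisons rest on counts.

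Fn1 (ENSMUSG00000026193, chr1:71585520-71653200, minus strand) encodes the glycoprotein that cells assemble into fibrils and grip through integrins such as alpha5 beta1. In culture its level was 2945, 2954 and 5602 CPM in D2.1 and 696, 677 and 1228 CPM in D2A1. The groups did not overlap, although the third library of each line was well above the other two, and Fn1 was 4.41-fold higher in D2.1 (log2 2.14 ± 0.35 SE, adjusted p = 0.0012). Among BALB/c tumors it was 4020, 4090, 2807 and 3387 CPM in D2.1 and 2830, 3518, 1650 and 1741 CPM in D2A1. Among SCID-beige tumors it was 2842, 3624, 6090, 2704 and 4772 CPM in D2.1 and 2395, 1595, 4063, 4503 and 5555 CPM in D2A1. The ranges of the lines overlapped in both hosts, and the differences of log2 0.54 ± 0.26 (adjusted p = 0.14) and 0.14 ± 0.32 (adjusted p = 0.77) did not pass the test. With the replicate number as a block, although the labels pair no tumors, the BALB/c difference was 0.60 with an adjusted p of 0.0096. With each library left out in turn it ranged from 0.40 to 0.76 (adjusted p of 0.040 to 0.30). It passed only without D2A1 BALB/c tumor 2, the highest D2A1 tumor there. Ordered by group mean, from 4006 CPM in D2.1 SCID-beige tumors to 867 CPM in cultured D2A1 cells, each neighbouring pair overlapped except the last, where D2A1 BALB/c tumors (2435 ± 899 CPM, SD, n = 4) lay above cultured D2A1 cells (867 ± 313 CPM, SD, n = 3).

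Sparc (ENSMUSG00000018593, chr11:55394500-55423183, minus strand) encodes a calcium-binding glycoprotein that binds collagen and takes part in its deposition. Cultured D2.1 cells had 1961, 1840 and 1536 CPM and cultured D2A1 cells 392, 416 and 411 CPM. These groups were far apart, with a 4.35-fold higher level in D2.1 (log2 2.12 ± 0.16, adjusted p = 1.3e-05). D2.1 tumors had 3867, 3711, 4575 and 5345 CPM in BALB/c mice, against 1454, 1385, 1808 and 1626 CPM in D2A1 tumors. Again no library of a line entered the range of the other, and the difference was 2.77-fold (log2 1.47 ± 0.18, adjusted p = 1.5e-04). In SCID-beige mice D2.1 tumors had 4704, 4081, 4020, 2073 and 4442 CPM and D2A1 tumors 2102, 1667, 1639, 1993 and 1566 CPM. Here D2.1 tumor 4 lay at the level of the D2A1 tumors, so that the groups overlapped, while the difference of 2.14-fold still passed (log2 1.10 ± 0.21, adjusted p = 0.0012; exact permutation p = 0.0159, 2-sided, where 0.00794 is the smallest that 5 against 5 can give). The level of D2.1 in culture (1779 ± 218.6 CPM, SD, n = 3) lay beside those of the 2 groups of D2A1 tumors (1793 ± 238, n = 5, and 1568 ± 189 CPM, n = 4), and these 3 neighbours overlapped.

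Periostin and tenascin-C are matrix proteins that fibroblasts lay down around wounds and tumors, periostin as a partner of collagen and integrins and tenascin-C as a modulator of adhesion to fibronectin. Postn (ENSMUSG00000027750, chr3:54361109-54391037, plus strand) was near absent in cultured D2A1 cells, at 0.369, 0.122 and 0.570 CPM (6, 2 and 10 counts), and low in cultured D2.1 cells, at 18.4, 15.2 and 3.64 CPM. All 3 D2.1 libraries were above all 3 D2A1 libraries, by 33.7-fold (log2 5.08 ± 0.71, adjusted p = 5.5e-04), with the third D2.1 library well below the other two. Postn in BALB/c tumors was 1229, 1618, 740.2 and 1268 CPM in D2.1 and 259, 146, 145 and 182 CPM in D2A1. In SCID-beige tumors it was 942, 1703, 679, 533 and 1909 CPM in D2.1 and 136, 76.4, 107, 280.3 and 155 CPM in D2A1. The lowest D2.1 tumor was thus above the highest D2A1 tumor in each host, and the differences were 6.55-fold (log2 2.71 ± 0.27, adjusted p = 4.7e-05) and 7.59-fold (log2 2.92 ± 0.41, adjusted p = 1.1e-04).

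Tnc (ENSMUSG00000028364, chr4:63959785-64047015, minus strand) had 239.8, 263 and 327 CPM in cultured D2.1 cells and 10.1, 9.44 and 13.5 CPM in cultured D2A1 cells. The difference was 25.0-fold (log2 4.64 ± 0.20, adjusted p = 1.0e-06), and the libraries of a line lay close together. BALB/c tumors had 561, 455, 415 and 488 CPM in D2.1 and 233, 198, 165 and 224 CPM in D2A1. SCID-beige tumors had 543, 348, 956, 269.7 and 525 CPM in D2.1 and 203, 137, 128, 266 and 163 CPM in D2A1. The lines did not overlap in either host, though D2.1 SCID-beige tumor 4 was only just above the highest D2A1 tumor, and the differences were 2.32-fold (log2 1.21 ± 0.16, adjusted p = 2.9e-04) and 2.93-fold (log2 1.55 ± 0.31, adjusted p = 0.0017). The group means fell in the order D2.1 tumors, D2.1 culture, D2A1 tumors, D2A1 culture, and the tumors of a line overlapped between hosts.

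Thrombospondin-1 and -2 are secreted by many cell types, restrain blood vessel growth and bind the receptors CD36 and CD47, and thrombospondin-1 also activates latent TGF-beta. Their transcripts followed opposite courses here. Thbs1 (ENSMUSG00000040152, chr2:118111876-118127133, plus strand) was abundant in culture, at 1441, 1329 and 2703 CPM in D2.1 and 1510, 1446 and 2208 CPM in D2A1. The lines overlapped there, and the third library of each was again the highest (log2 0.08 ± 0.31, adjusted p = 0.86). Thbs1 in BALB/c tumors was 86.4, 73.6, 47.3 and 32.8 CPM in D2.1 and 961, 1311, 521 and 722 CPM in D2A1. In SCID-beige tumors it was 46.2, 51.9, 27.4, 43.1 and 109 CPM in D2.1 and 589, 461, 863, 1044 and 1529 CPM in D2A1. No D2.1 tumor came near the lowest D2A1 tumor, and Thbs1 was 14.8-fold lower in D2.1 in BALB/c mice (log2 −3.89 ± 0.38, adjusted p = 3.8e-05) and 16.2-fold lower in SCID-beige mice (log2 −4.02 ± 0.40, adjusted p = 6.6e-06).

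Thbs2 (ENSMUSG00000023885, chr17:14665500-14694235, minus strand) was at or under the floor in all 6 culture libraries, with at most 2 counts in any of them, so that the lines could not be compared in culture. In BALB/c tumors it was 109, 37.6, 42.5 and 66.1 CPM in D2.1 and 144, 95.0, 67.4 and 85.2 CPM in D2A1. In SCID-beige tumors it was 61.3, 26.7, 28.8, 162 and 78.1 CPM in D2.1 and 102, 61.3, 95.3, 168 and 158 CPM in D2A1. The lines overlapped in each host, and the differences of log2 −0.62 ± 0.35 (adjusted p = 0.21) and −0.71 ± 0.44 (adjusted p = 0.24) did not pass the test. A single D2.1 tumor was the highest of its group in each host, tumor 1 in BALB/c and tumor 4 in SCID-beige mice. Without them the differences were −1.02 (adjusted p = 0.036) and −1.32 (adjusted p = 0.014). Omitting the highest library of the lower line widens a difference by construction, so that these passes are no evidence of one. Other single omissions shrank the difference to as little as −0.38 in BALB/c mice (adjusted p of up to 0.47). In SCID-beige mice they shrank it to as little as −0.50 (adjusted p of up to 0.42). D2.1 BALB/c tumor 1 and D2.1 SCID-beige tumor 4 had the highest skeletal muscle marker sums of their groups, at 340.5 and 262 CPM. The part of muscle in the Thbs2 values was not tested. D2A1 BALB/c tumor 1, the highest of its group in Thbs2, also had the highest muscle sum there (58.3 CPM, against 5.59 to 10.3 CPM), whereas D2A1 SCID-beige tumor 4, highest in Thbs2, had a muscle sum of 5.41 CPM in a group that spanned 1.41 to 15.7 CPM. With the replicate number as a block the differences were −0.70 (adjusted p = 0.0088) and −0.95 (adjusted p = 0.0061). The labels do not say that same-numbered tumors of the lines belong together, so that these values cannot be read as a paired test.

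The fibulins bind elastin, fibronectin and basement membrane proteins, and fibulin-5 is required for the assembly of elastic fibers. The pair here differed in sign. Fbln1 (ENSMUSG00000006369, chr15:85205949-85286535, plus strand) had 0 counts in each of the 3 libraries of cultured D2.1 cells and 12.6, 15.0 and 9.81 CPM in cultured D2A1 cells, which is at least 76.2-fold lower in D2.1, against a floor of 3 counts per library (adjusted p = 1.8e-05). In BALB/c tumors it was 20.2, 4.26, 12.8 and 12.5 CPM in D2.1 and 32.9, 30.9, 40.2 and 20.9 CPM in D2A1. The groups were narrowly apart and the 2.51-fold lower level in D2.1 passed the test (log2 −1.33 ± 0.40, adjusted p = 0.028), but no longer in a fit of all tumors together (adjusted p = 0.066) or without D2.1 tumor 3 or 4 or D2A1 tumor 1 or 3 (adjusted p of 0.059 to 0.074). In SCID-beige tumors it was 4.20, 3.37, 0.0580, 5.33 and 5.50 CPM in D2.1 and 51.4, 38.4, 51.7, 68.8 and 61.0 CPM in D2A1. There the groups were far apart, with a 14.7-fold lower level in D2.1 (log2 −3.88 ± 0.56, adjusted p = 1.4e-04), and D2.1 tumor 3, with a single count, was the lowest.

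Fbln5 (ENSMUSG00000021186, chr12:101746565-101819055, minus strand) went the other way. Cultured D2.1 cells had 28.2, 25.7 and 21.1 CPM and cultured D2A1 cells 0.246, 0.426 and 0.399 CPM (4, 7 and 7 counts). The difference was 68.0-fold (log2 6.09 ± 0.26, adjusted p = 9.3e-07), with D2A1 near the floor, so that its size is uncertain. BALB/c tumors had 178, 202, 136 and 175 CPM in D2.1 and 9.03, 8.13, 10.3 and 8.17 CPM in D2A1. SCID-beige tumors had 123, 132, 28.6, 95.7 and 171 CPM in D2.1 and 8.82, 7.88, 8.98, 11.9 and 8.61 CPM in D2A1. The D2A1 tumors were tightly grouped, while D2.1 SCID-beige tumor 3 stood well below the other D2.1 tumors and still above every D2A1 tumor. The differences were 19.1-fold (log2 4.26 ± 0.18, adjusted p = 4.8e-07) and 11.9-fold (log2 3.57 ± 0.37, adjusted p = 8.9e-06).

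EMILIN-1 sits where elastin meets its microfibrils and limits the processing of TGF-beta, and matrilin-2 is an adaptor of filamentous networks around cells. Emilin1 (ENSMUSG00000029163, chr5:30913402-30921277, plus strand) had 201, 207 and 229 CPM in cultured D2.1 cells and 9.97, 10.7 and 10.8 CPM in cultured D2A1 cells, a difference of 20.1-fold (log2 4.33 ± 0.13, adjusted p = 4.3e-07). BALB/c tumors had 621, 457, 555 and 476 CPM in D2.1 and 144, 174, 178 and 228 CPM in D2A1. SCID-beige tumors had 454, 583.1, 373, 377 and 449 CPM in D2.1 and 272, 279, 238, 344 and 232 CPM in D2A1. The lines did not overlap in any setting, but their distance narrowed from culture to 2.89-fold in BALB/c mice (log2 1.53 ± 0.18, adjusted p = 1.1e-04) and 1.63-fold in SCID-beige mice (log2 0.70 ± 0.16, adjusted p = 0.0047).

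Matn2 (ENSMUSG00000022324, chr15:34306677-34436273, plus strand) showed the widest gap in tumors of the 10 genes. Cultured D2.1 cells had 120.3, 122 and 111 CPM and cultured D2A1 cells 4.80, 4.50 and 4.91 CPM, a difference of 24.7-fold (log2 4.63 ± 0.13, adjusted p = 4.2e-07). BALB/c tumors had 511, 545, 298 and 365 CPM in D2.1 and 12.5, 14.2, 8.98 and 11.1 CPM in D2A1. SCID-beige tumors had 468, 537, 512, 619 and 675 CPM in D2.1 and 11.3, 15.1, 16.3, 14.3 and 17.7 CPM in D2A1. Each D2.1 tumor was far above each D2A1 tumor, by 36.3-fold in BALB/c mice (log2 5.18 ± 0.25, adjusted p = 6.8e-07) and 37.4-fold in SCID-beige mice (log2 5.22 ± 0.18, adjusted p = 1.0e-09).

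Counted together, 8 of the 9 genes tested in culture differed between the lines, 7 of them higher in D2.1 and 1 lower, where 44.9% of all genes tested differed (24.2% higher and 20.7% lower). The groups of 8 genes did not overlap in culture, against 55.4% of all genes. In BALB/c tumors 8 of 10 genes differed, 6 higher and 2 lower, against 32.6% of all genes (16.8% higher and 15.8% lower), and 8 did not overlap, against 34.5%. In SCID-beige tumors 8 of 10 differed, again 6 higher and 2 lower, against 32.1% of all genes (17.2% higher and 14.8% lower), and 7 did not overlap, against 24.1%. The median difference of the genes tested was log2 4.33 in culture, 1.34 in BALB/c tumors and 0.90 in SCID-beige tumors, where the median of all genes was −0.02, −0.02 and 0.02. The genes were chosen with earlier results of these data known, so that such counts and medians, here and below, are no test of the set. Exact permutation tests of single genes (2-sided) cannot go below p = 0.10 with 3 against 3 libraries, 0.0286 with 4 against 4 and 0.00794 with 5 against 5, and each gene whose groups did not overlap gave that smallest value.

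**Figure D2:**
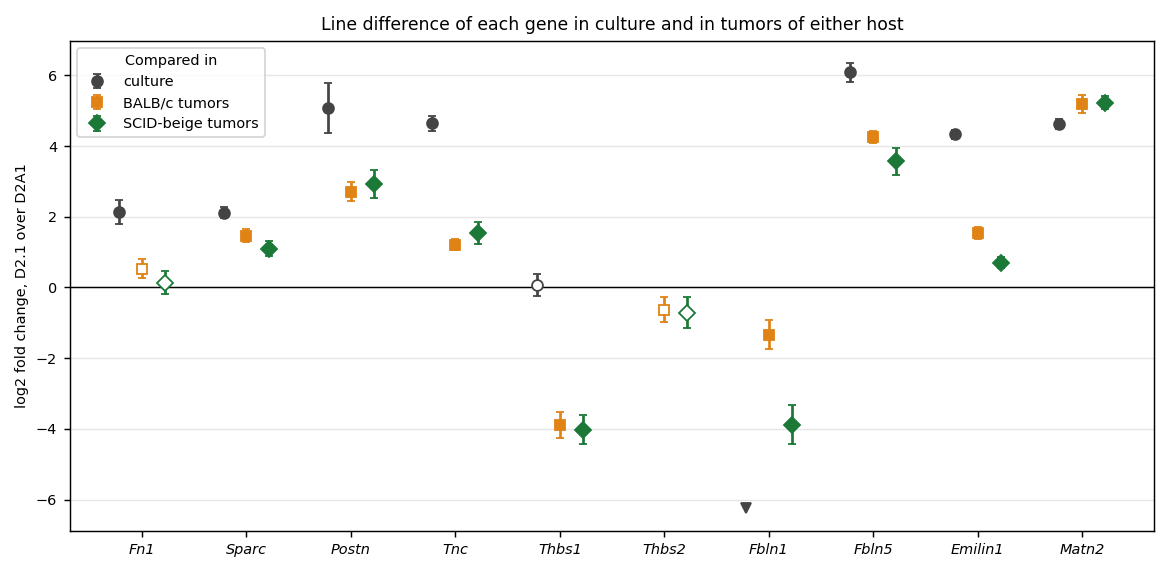
Log2 fold change of each gene, D2.1 over D2A1, in culture (circles), BALB/c tumors (squares) and SCID-beige tumors (diamonds), with bars of 1 SE. Filled symbols passed an adjusted p of 0.05, the triangle marks the bound of at least 76.2-fold lower for Fbln1 in culture, and Thbs2 was not tested in culture. The points of Tnc and Emilin1 fall from above 4 in culture to below 2 in tumors, while those of Matn2 stay near 5.

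Markers of several other cell types moved with the lines, and their part in these differences was not tested. The summed level of 8 fibroblast markers (Pdgfra, Pdgfrb, Dcn, Lum, Fap, Thy1, Col1a1 and Col3a1) was 9281 to 15139 CPM in D2.1 BALB/c tumors and 1999 to 3033 CPM in D2A1 BALB/c tumors, and all 8 were higher in D2.1. In SCID-beige mice it was 6805 to 15426 CPM and 1509 to 3702 CPM, and 6 of 8 were higher in D2.1. In culture, without a host, the sum was 2068 to 2907 CPM in D2.1 and 138 to 147 CPM in D2A1, and all 5 markers that could be tested were higher in D2.1. Dcn, Lum and Thy1 were at or under the floor in both cultured lines, and in D2A1 Fap was as well. Endothelial markers ran the other way, at 86.8 to 143 CPM in D2.1 and 227 to 287 CPM in D2A1 tumors of BALB/c mice (4 of 6 lower in D2.1) and 60.8 to 99.0 against 204 to 282 CPM in SCID-beige mice (5 of 6 lower). All 6 T cell markers were higher in D2.1 than in D2A1 BALB/c tumors, where their sums were 58.0 to 149 and 7.90 to 23.1 CPM. Of 6 macrophage markers, 1 was higher in D2.1 BALB/c tumors, 3 were higher in D2.1 SCID-beige tumors and none was lower. No pericyte and smooth muscle marker was higher in D2.1 tumors, and 1 of 5 was lower in BALB/c and 2 of 5 in SCID-beige mice. No adipocyte marker passed in either host. Of the skeletal muscle markers tested, 2 of 6 were higher in D2.1 in BALB/c mice and 1 of 2 in SCID-beige mice, with none lower. As a check of the labelled tissue, the epithelial markers Krt8, Krt18, Krt14, Epcam and Cdh1 were above the floor in every group, with sums of 139 to 5086 CPM in culture and 368 to 1197 CPM in tumors.

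The comparison of SCID-beige tumors with cultured cells of the same line asked how the levels differ between the mouse and the dish. Nearly all of these genes were higher in tumors and Thbs1 was lower. In D2.1, 9 of 10 differed, 8 higher and 1 lower, where 53.1% of all genes differed (30.8% higher and 22.3% lower). In D2A1 all 10 differed, 9 higher and 1 lower, against 58.1% (33.6% higher and 24.5% lower). The groups did not overlap for 8 genes in D2.1 and 9 in D2A1, against 51.5% and 56.7% of all genes. For Fbln1 in D2.1 that separation rests on 1 count in SCID-beige tumor 3, under the floor, against 0 counts in culture. The median difference was log2 1.64 in D2.1 and 3.07 in D2A1, also with genes at the floor set to their bound, where that of all genes was 0.09 and 0.10, and 0.0357 is the smallest exact permutation p that 5 against 3 libraries allow. Cultured cells and tumors were counted in separate tables, and the table cannot be told apart from the setting. Markers of host cells moved with the setting, and their part in these differences was not tested. All 8 fibroblast markers were higher in tumors of both lines (median log2 6.42 in D2.1 and 8.43 in D2A1), as were all 6 endothelial markers (7.12 and 10.83) and all 6 macrophage markers (10.09 and 11.13), medians that include markers at or under the floor in culture.

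Thbs2 rose most, from the floor in culture to at least 436-fold higher in D2.1 tumors (71.4 ± 55.2 CPM, SD, n = 5) and at least 651-fold higher in D2A1 tumors (117 ± 45.0 CPM, n = 5). Postn rose 93.7-fold in D2.1 (log2 6.55 ± 0.69, adjusted p = 2.2e-05) and 411-fold in D2A1 (log2 8.68 ± 0.61, adjusted p = 5.5e-07). Fbln1 rose from 0 counts to at least 22.5-fold higher in D2.1 tumors, by their mean and with tumor 3 under the floor. In D2A1 tumors it rose 4.32-fold (log2 2.11 ± 0.23, adjusted p = 1.8e-05). Of these 3 genes, only Fbln1 in D2A1 and Postn in D2.1 stood clearly above the floor in every culture library of a line.

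For 5 genes, Tnc, Emilin1, Fbln5, Fn1 and Sparc, the rise was larger in D2A1, by the interaction test given below. Tnc rose 1.93-fold in D2.1 (log2 0.95 ± 0.35, adjusted p = 0.039) and 16.2-fold in D2A1 (log2 4.02 ± 0.29, adjusted p = 7.0e-07). Emilin1 rose 2.13-fold and 25.8-fold (log2 1.09 ± 0.18 and 4.69 ± 0.20), and Fbln5 4.46-fold and 25.1-fold (log2 2.16 ± 0.45 and 4.65 ± 0.33). The D2A1 value of Fbln5 stands against culture libraries near the floor. Fn1 did not pass the test in D2.1 (log2 0.07 ± 0.31, adjusted p = 0.85) and rose 4.15-fold in D2A1 (log2 2.05 ± 0.40, adjusted p = 0.0011). The rise of Tnc in D2.1 rested on overlapping groups and lost its call without any filter on low counts (adjusted p = 0.084) and when any of 6 of the 8 libraries was left out (adjusted p of up to 0.13). Sparc rose 2.20-fold in D2.1 (log2 1.13 ± 0.25, adjusted p = 0.0031) and 4.38-fold in D2A1 (log2 2.13 ± 0.17, adjusted p = 1.5e-06). Matn2 rose 4.82-fold in D2.1 (log2 2.27 ± 0.17, adjusted p = 2.0e-06) and 3.14-fold in D2A1 (log2 1.65 ± 0.22, adjusted p = 7.3e-05).

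Thbs1 fell 32.6-fold in D2.1, from 1824 ± 763 CPM (SD, n = 3) in culture to 55.5 ± 31.3 CPM (n = 5) in tumors (log2 −5.03 ± 0.42, adjusted p = 3.6e-06). In D2A1 it fell 1.93-fold, from 1721 ± 423 to 897 ± 420 CPM (log2 −0.95 ± 0.33, adjusted p = 0.028), and these groups overlapped. The fall in D2A1 lost its call without the third culture library (log2 −0.74, adjusted p = 0.13) and without SCID-beige tumor 1 or 3.

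**Figure D3:**
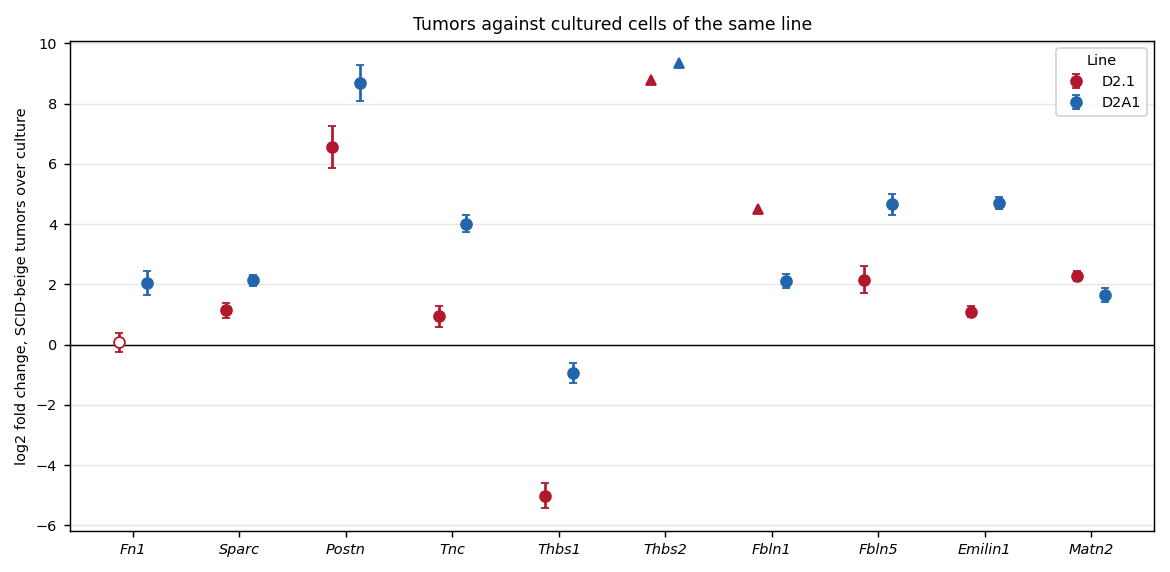
Log2 fold change of each gene, SCID-beige tumors over cultured cells, in D2.1 (red) and D2A1 (blue), with bars of 1 SE. Filled symbols passed an adjusted p of 0.05, and triangles mark lower bounds against a culture group at or under the floor. Thbs1 is the only gene below 0, with D2.1 at −5.03 and D2A1 at −0.95.

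Whether the difference between lines itself changed from culture to SCID-beige tumors was tested as an interaction, and 7 of 10 genes passed, 1 higher and 6 lower, where 12.8% of all genes passed (4.62% higher and 8.18% lower). The excess of D2.1 shrank in tumors by log2 3.61 ± 0.24 for Emilin1 (a change of −3.61, adjusted p = 2.2e-08), and the changes were −3.09 ± 0.46 for Tnc (adjusted p = 1.3e-04), −2.51 ± 0.63 for Fbln5 (adjusted p = 0.012), −2.001 ± 0.52 for Fn1 (adjusted p = 0.015) and −1.01 ± 0.29 for Sparc (adjusted p = 0.027). For Thbs1 the change of −4.10 ± 0.59 (adjusted p = 9.9e-05) took lines that overlapped in culture to a lower level in D2.1 tumors. The fitted change of 6.85 ± 1.84 for Fbln1 (adjusted p = 0.021) stands against a culture group with 0 counts, so that its size depends on the fit. That of Fbln5 stands against D2A1 culture libraries near the floor. Postn (−2.14 ± 0.92, adjusted p = 0.15), Matn2 (0.61 ± 0.22, adjusted p = 0.088) and Thbs2 (−1.36 ± 2.94, adjusted p = 0.85) did not pass. Matn2 did pass by DESeq2 (0.64, adjusted p = 0.048) and, although the labels pair no libraries, with the replicate number as a block (0.60, adjusted p = 0.049). The calls of Emilin1, Tnc and Thbs1 held with each library left out. Fn1 lost its call without D2.1 culture library 3 or D2A1 culture library 1 or 2 (adjusted p of 0.053 to 0.056), and Fbln5 without D2A1 culture library 1 (adjusted p = 0.050). Sparc lost its call without D2.1 culture library 1 or 2 or any D2A1 culture library (adjusted p of 0.057 to 0.079) and with BALB/c in place of SCID-beige tumors (−0.62, adjusted p = 0.10). Fbln1 lost its call without any of the D2.1 culture libraries (adjusted p of 0.050 to 0.063) or without a filter on low counts (adjusted p = 0.081). Without D2A1 culture library 1 the count was 4 genes.

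The comparison of hosts asked whether these genes differ between a mouse with adaptive immunity and one without. None of the 10 genes passed in D2.1 tumors by edgeR or DESeq2, where 0.891% of all genes did (0.871% higher in BALB/c and 0.0201% lower), and 1 had an unadjusted p under 0.05. That gene was Fbln1, at 12.4 ± 6.51 CPM (SD, n = 4) in BALB/c and 3.69 ± 2.21 CPM (n = 5) in SCID-beige tumors (log2 1.78 ± 0.71, adjusted p = 0.39), with overlapping groups. In D2A1 tumors none passed by edgeR, where 1.17% of all genes did (0.906% higher and 0.261% lower), and 2 had an unadjusted p under 0.05. These were Fbln1, at 31.2 ± 7.95 CPM in BALB/c and 54.2 ± 11.4 CPM in SCID-beige tumors (log2 −0.79 ± 0.22, adjusted p = 0.12), and Emilin1, at 181 ± 34.7 and 273 ± 44.8 CPM (log2 −0.59 ± 0.16, adjusted p = 0.13). DESeq2 called both, with adjusted p of 0.012 for Fbln1 and 0.024 for Emilin1, and Emilin1 was the 1 gene whose host groups did not overlap in D2A1, against 5.44% of all genes (none did so in D2.1, against 4.67%). On simulated counts for hosts in D2A1, 18.4% of DESeq2 calls were false, against 7.11% of edgeR calls. Those counts followed the spread fitted by edgeR, with planted changes of log2 2, so that they cannot judge DESeq2's calls of Fbln1 and Emilin1. For the other 8 genes the host differences in D2A1 lay between log2 −0.56 (Fn1) and 0.29 (Postn), and in D2.1 the 9 genes besides Fbln1 lay between −0.37 (Matn2) and 0.67 (Fbln5).

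Fbln1 thus leaned to BALB/c in D2.1 and to SCID-beige in D2A1, and the test of that difference, the interaction of line and host, gave log2 2.54 ± 0.74 with an adjusted p of 0.33. Emilin1 gave 0.82 ± 0.24 with the same adjusted p. No member passed this interaction by edgeR or DESeq2, 2 had an unadjusted p under 0.05, and 0.0187% of all genes passed. T cell marker sums differed between hosts in the direction of the labels, at 58.0 to 149 CPM in D2.1 BALB/c tumors and 5.05 to 13.9 CPM in D2.1 SCID-beige tumors. The D2A1 gap was smaller, at 7.90 to 23.1 CPM in BALB/c and 3.20 to 5.84 CPM in SCID-beige tumors. By the test 5 of 6 markers were higher in BALB/c mice in D2.1, and 3 of the 5 tested in D2A1.

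Other matrix genes were read from 6 lists of 59 genes, chosen by family and role and with earlier results of these data known. In culture 34 could be tested, and 18 were higher and 5 lower in D2.1 (52.9% and 14.7%, beside 24.2% and 20.7% of all genes). In BALB/c tumors 15 of 52 were higher and 10 lower, and in SCID-beige tumors 14 of 52 were higher and 15 lower. In tumors the lists thus held both higher and lower genes, at 28.8% and 19.2% of those tested in BALB/c and 26.9% and 28.8% in SCID-beige mice, beside 16.8% and 15.8%, and 17.2% and 14.8%, of all genes.

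Among CCN and other matricellular proteins, 5 of 8 genes tested were higher in cultured D2.1 cells and 1 was lower, with a list median of log2 1.34. Ccn5, a growth-restraining member of the CCN family, was at 287 ± 19.8 CPM in D2.1 and 3.76 ± 1.17 CPM in D2A1 (SD, n = 3; log2 6.24 ± 0.22), and Spp1, which encodes osteopontin, was at 6883 ± 2258 and 549 ± 55.2 CPM (log2 3.64 ± 0.29). Igfbp7 was the exception, lower in D2.1 at 0.0841 CPM, under the floor, against 15.0 CPM. In tumors the list divided, with 2 higher and 3 lower of 9 in BALB/c mice (median −0.54) and 3 higher and 3 lower in SCID-beige mice (median −0.27). Ccn5 stayed higher in D2.1 in both hosts (log2 2.61 ± 0.17 and 2.54 ± 0.28), while Ccn1, a product of cells under mechanical load, was lower in D2.1 in both (−2.04 ± 0.15 and −2.12 ± 0.20). Spp1 turned from higher in cultured D2.1 cells to lower in D2.1 BALB/c tumors (1173 ± 306 against 3519 ± 669 CPM, n = 4, log2 −1.60 ± 0.21, adjusted p = 2.5e-04).

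Among other fibulins, EMILINs and matrilins, 4 of 5 genes tested in culture were higher in D2.1 and none lower, and in tumors 3 of 8 were higher and 1 lower in each host. Fbln7 was at 117 against 1.23 CPM in BALB/c tumors (log2 6.54 ± 0.37) and 98.7 against 0.623 CPM in SCID-beige tumors (7.28 ± 0.39). Matn4, a relative of Matn2, was at 38.4 against 0.267 CPM and 32.4 against 0.129 CPM, where the D2A1 levels lay near the floor. Of the elastic fiber and microfibril genes, 7 could be tested in culture, where 1 was higher and 3 were lower in D2.1. In tumors 3 of 12 were higher and 1 lower in D2.1 in BALB/c mice, and 2 were higher and 6 lower in SCID-beige mice. Ltbp1, which stores latent TGF-beta in the matrix, was lower in D2.1 tumors of both hosts (log2 −2.11 ± 0.20 and −2.44 ± 0.20), and Ltbp2 was higher (2.62 ± 0.16 and 1.66 ± 0.43). The fibrillin gene Fbn1 was lower in D2.1 SCID-beige tumors (22.04 against 71.5 CPM, log2 −1.70 ± 0.37).

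Of the other tenascins and thrombospondins, 2 could be tested in culture, where 1 was lower in D2.1 and none higher. Tnn and Thbs4 were higher and Thbs3 lower in D2.1 tumors of both hosts, among 5 genes tested (log2 in BALB/c mice 2.72 ± 0.60, 4.001 ± 0.76 and −1.01 ± 0.23). In the SPARC family, 1 of 2 genes tested in culture was higher and none lower. In BALB/c tumors 1 of 6 was higher and 2 were lower (median log2 −0.31), and in SCID-beige tumors 1 was higher and 1 lower (median −0.71). The lower genes were Spock3 (0.291 against 2.47 CPM) and Sparcl1 (32.8 against 66.9 CPM) in BALB/c mice and Smoc1 (0.708 against 6.15 CPM) in SCID-beige mice. Smoc2 was the higher gene in each setting (3.49 against 0.141 CPM in culture, and log2 3.15 ± 0.46 in BALB/c and 3.46 ± 0.48 in SCID-beige tumors). Receptors for these proteins divided by setting. In culture 7 of 10 were higher in D2.1 and none lower, among them Itga5, the fibronectin receptor subunit (161 against 50.2 CPM, log2 1.67 ± 0.11), Itgb5 (568 against 188 CPM, 1.58 ± 0.14) and Itgb3 (46.8 against 6.70 CPM, 2.79 ± 0.39). In SCID-beige tumors 3 of 12 were higher and 3 lower, and the lower ones were Itgb3 (log2 −1.73 ± 0.26), Itgb5 (−0.96 ± 0.16) and Itgb1 (−0.75 ± 0.14).

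**Figure D4:**
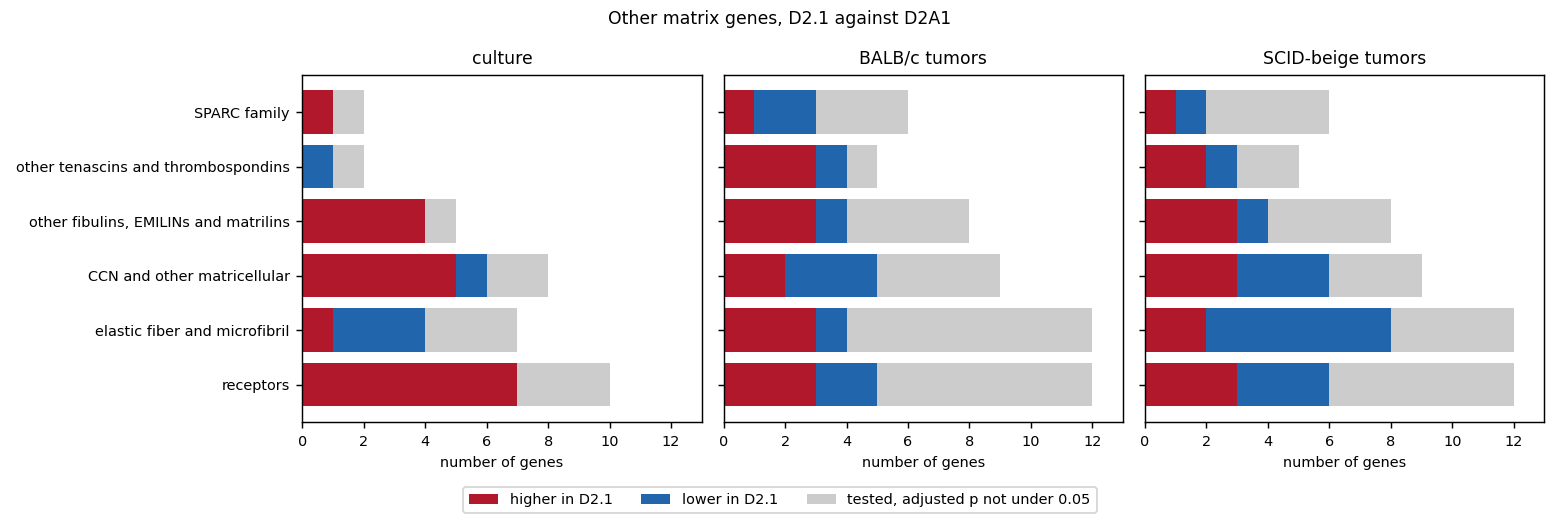
Number of genes of each list that were higher (red) or lower (blue) in D2.1 than in D2A1, or were tested without passing (gray), in culture, BALB/c tumors and SCID-beige tumors. The red bars are longest among receptors in culture, at 7 of 10, and the longest blue bar is that of elastic fiber and microfibril genes in SCID-beige tumors, at 6 of 12.

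In tumors against culture, 34 of 52 genes of the lists were higher and 5 lower in D2.1, beside 30.8% and 22.3% of all genes. In D2A1 40 of 49 were higher and 2 lower, beside 33.6% and 24.5%. All 12 elastic fiber and microfibril genes were higher in D2A1 tumors, and 10 of 12 in D2.1 tumors, with none lower. Tgfbi, a collagen-binding relative of periostin, was at 433 against 2.26 CPM in D2.1 (log2 7.59 ± 0.70) and 141 against 0.0408 CPM, under the floor, in D2A1. In D2.1, Ccn1 fell from 990 CPM in culture to 95.9 CPM in tumors (log2 −3.35 ± 0.23). Between hosts, 1 gene of the lists passed, Tgfbi, at 275 ± 50.4 CPM in D2A1 BALB/c and 141 ± 14.2 CPM in D2A1 SCID-beige tumors (log2 0.97 ± 0.14, adjusted p = 0.011).

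Within groups, the genes varied from tumor to tumor in ways of their own. After group means were taken off the log2 CPM of the 18 tumors, Fbln1 and Fbln5 were the most alike pair of the 10 genes (Pearson r = 0.84), followed by Thbs1 and Matn2 (0.69), and Sparc and Matn2 were the most opposed (−0.60). D2.1 SCID-beige tumor 3 was the lowest of its group in both fibulins, and its part in the first of these values was not tested. Over 13764 genes, the protein-coding gene most like each was Kif3b for Fn1 (r = 0.96), Spg21 for Sparc (0.94), Sfrp2 for Postn (0.93), Ggta1 for Tnc (0.82) and Ptpn14 for Thbs1 (0.93). For the others it was Unc45b, a myosin chaperone of striated muscle, for Thbs2 (0.92), Sfrp1 for Fbln1 (0.95), Nkd2 for Fbln5 (0.93), Pnpla7 for Emilin1 (0.84) and Dnajc3 for Matn2 (0.91). These correlations describe 18 tumors that share depth and host tissue and carry no test.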

How the data were processed

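Raw counts by gene and FPKM were deposited by the authors, with 1 table of each for cultured cells and 1 for tumors. Per the labels, STAR and mm10 were used, and the counting program, annotation and strand setting are not given in the sources used here. The deposited FPKM equal counts over gene length and library total for 100.0% of genes, within 0.1%. Lengths agreed between the tables within 1% for 24.8% of 19189 genes. Identifiers were matched to GENCODE M21 (GRCm38). Reads of Fn1, Tnc, Thbs1 and Matn2 may be shared with the antisense genes Apol7d, 8030451A03Rik, Gm29233 and 9430069I07Rik.

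Genes were tested with edgeR 4.0.16 in R 4.3.3 (TMM, default filter, robust quasi-likelihood fit, Benjamini-Hochberg adjusted p under 0.05), with only the groups compared in each fit and interactions fitted over 4 groups. Tables were joined on 34519 shared genes. The SE is the log2 fold change over the square root of F. Alternatives were DESeq2 1.42.0, its size factors in edgeR, no filter, at least 10 counts, a log2 change beyond 1, a replicate block, 1 fit of all tumors, BALB/c tumors against culture, and each library left out. The fit without D2.1 BALB/c tumors 1 and 4 was added after seeing the data. On simulated counts with 200 genes changed by log2 2, edgeR recovered 86.5% to 95.5% in the comparisons of 2 groups, and 64.5% and 67.5% in the interactions of line with host (16036 genes) and line with setting (15077 genes). Of the genes called there, 3.17% to 7.11% were false by edgeR and 9.27% to 18.4% by DESeq2. Changes smaller than log2 2 were not simulated, and the counts followed the spread that edgeR fitted by expression level, with no spread of single genes.

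Labels give the groups the same replicate numbers and do not say that same-numbered libraries are pairs. Deviations of same-numbered libraries correlated at 0.156 to 0.422 in culture, so that these were taken as paired, and at 0.0855 to 0.404 in BALB/c and −0.153 to 0.220 in SCID-beige tumors. The main fits and the permutation tests left the replicate number out, in culture as well. Pairing entered only in the alternative with a replicate block. No 2 libraries of a group were copies (chi-square per degree of freedom of at least 5.20 in 38 pairs). Within each list the genes named are at most 4 with the lowest adjusted p in the comparison, and those most alike were ranked by Pearson r. The members and lists were chosen with earlier results of these data known. Protein sequences and raw reads were not used here.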

Additional observations from a re-analysis of the deposited data

Results flagged for a closer look

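In 40 gene-by-group sets of 4 or 5 tumors, 2 held a library far from the rest by Dixon's criterion, where chance gives about 1 in 20. Sparc in D2.1 SCID-beige tumor 4 was 2073 CPM, below the other 4 tumors at 4020 CPM or more. That tumor had the highest mammary epithelium (1197 CPM) and skeletal muscle (262 CPM) marker sums of its group and the lowest macrophage sum (660 CPM). The part of these tissues in its Sparc value was not tested. Fbln1 in D2.1 SCID-beige tumor 3 was 0.0580 CPM, below the others at 3.37 CPM or more, and that tumor also had the lowest adipocyte and fibroblast marker sums of its group.

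The difference between lines changed from culture to SCID-beige tumors for 7 genes, by the interaction test in edgeR. The changes were −2.001 for Fn1, −1.01 for Sparc, −3.09 for Tnc, −4.10 for Thbs1, 6.85 for Fbln1, −2.51 for Fbln5 and −3.61 for Emilin1 on the log2 scale. The value for Fbln1 is set against a culture group with 0 counts, and that for Fbln5 against D2A1 culture libraries near the floor. The calls of Emilin1, Tnc and Thbs1 held with each library left out, while those of Fn1, Sparc, Fbln1 and Fbln5 did not.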

How the results depend on the processing

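The counts of genes called stayed within 1.5 times of the reported ones under the alternatives, except that DESeq2 called 2 genes between hosts in D2A1 (0 by edgeR) and that the line by setting count fell from 7 to 4 without D2A1 culture library 1. With each library left out in turn, counts ranged 8 to 8 in culture, 7 to 9 and 8 to 9 for lines in BALB/c and SCID-beige tumors, 8 to 9 and 9 to 10 for tumors against culture in D2.1 and D2A1, 4 to 7 for line by setting, and were 0 for hosts and line by host. The replicate block gave 8, 10 and 9 genes for lines in culture, BALB/c and SCID-beige tumors, 9 and 10 for tumors against culture, 8 for line by setting and 0 for hosts and line by host. In culture, where same-numbered libraries were taken as paired from their correlation, it changed no call. Besides those of Fn1 and Thbs2 between lines in tumors and of Matn2 in line by setting, given with these results, it changed no other call. Without D2.1 BALB/c tumors 1 and 4, 9 genes differed between lines in BALB/c mice and 0 between hosts in D2.1. Thbs2 was the gene added, at −1.33 (adjusted p = 0.018). Those tumors were the highest of their group in Thbs2 (109 and 66.1 CPM), so that omitting them widens its difference.

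Directions turned only for values that did not pass the test. With the block, Tnc and Thbs2 between hosts in D2.1 were 0.042 and 0.18 and Thbs1 between hosts in D2A1 was 0.24. By DESeq2 or its size factors, Matn2 in line by host was 0.029, and with BALB/c tumors Fn1 in D2.1 tumors against culture was −0.026. With single libraries left out, ranges that crossed 0 were −0.33 to 0.30 (Thbs1, lines in culture), −0.089 to 0.34 (Fn1, lines in SCID-beige tumors), −0.12 to 0.45 (Fn1, D2.1 tumors against culture) and −3.23 to 1.17 (Thbs2, line by setting). Between hosts in D2.1 they were −0.23 to 0.053 (Fn1), −0.075 to 0.34 (Postn), −0.25 to 0.20 (Tnc), −0.12 to 0.51 (Thbs1) and −0.55 to 0.45 (Thbs2), and in D2A1 −0.28 to 0.26 (Thbs1) and −0.15 to 0.056 (Fbln5). In line by host they were −0.56 to 0.023 (Postn), −0.15 to 0.51 (Thbs1), −0.31 to 0.65 (Thbs2) and −0.16 to 0.093 (Matn2). Groups of 3 to 5 libraries and the floor of 3 counts limit what can be seen of Thbs2, Fbln1, Postn and Fbln5 in culture.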
